A study of Homo sapiens with 2 samples.

Results

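The list of ChIP peaks for dCas9-BFP-DNMT3A held 970 peaks that lay in gene deserts and lacked the seed of gRNA T2, out of 7757 peaks in all. A desert was taken as sequence more than 100 kb from every protein-coding gene, and a peak was taken as lacking the T2 seed when no site within 70 bp of its summit, on either strand, matched the last 5 bases of T2 followed by NGG. The 7748 peaks on chromosomes 1 to 22 and X were sorted in this way, and the remaining 9 lay on chromosome Y (1 peak) and on other contigs (8 peaks). Beside the 970 peaks, the deserts held 173 peaks with a T2 seed, whereas 5442 peaks without the seed and 1163 peaks with it lay outside deserts.

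The peaks came from HEK293T, a transformed line derived from human embryonic kidney, 48 hours after it received 500 ng of a plasmid for dCas9-BFP-DNMT3A together with *uPA* gRNAs (500 ng). Chromatin was precipitated with an antibody against the HA tag of the fusion protein, and peaks were called against an input sample, which entered only through that call. There was 1 peak list from 1 ChIP sample, with 44934315 ChIP tags and 46375481 input tags after duplicates were removed, so the spread between replicates is unknown. All intervals below are 95% intervals for counting error over the peaks of this list, peaks are not replicates, and no adjustment was made for the 25 shares compared.

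dCas9 is a Cas9 protein that binds DNA through its gRNA but does not cut it, and here it carried a blue fluorescent protein and the catalytic part of the DNA methyltransferase DNMT3A. Cas9 first reads a short PAM, written NGG, and then pairs the guide with the DNA from the PAM-proximal end, which is called the seed, so that brief binding can occur at sites that share little more than seed and PAM. Gene deserts are long stretches without protein-coding genes, often AT-rich, often in closed chromatin, and many flank genes that steer development or neuronal function. They can hold long non-coding RNA (lncRNA) genes and distant enhancers.

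The *uPA* gRNAs are shown because the rule and the motif counts rest on them, 5′ to 3′ without the PAM and with the last 5 bases (the seed) in capitals:
T1: gtgagcgttgcggaaGCACG
T2: gagccgggcgggagaGGGAG
T3: gagtcaaggcgccccGTCCC
T4: gcccggggatctcagGACCG
T5: gggacaggtggacccTGGCC

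The summit windows of 2 peaks are shown because they led the desert peaks without a T2 seed in fold enrichment and in MACS *P* value, respectively. Each runs 70 bp to either side of the summit on the plus strand of GRCh37 (hg19), and the capitals mark the 23 bases, guide-length site and PAM together, that had the fewest mismatches to T2 among all sites with NGG in the window:
chr9:118730897-118731037: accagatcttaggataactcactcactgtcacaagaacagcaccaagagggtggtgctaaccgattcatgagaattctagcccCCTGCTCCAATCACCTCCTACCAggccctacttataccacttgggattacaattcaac
chr15:86443002-86443142: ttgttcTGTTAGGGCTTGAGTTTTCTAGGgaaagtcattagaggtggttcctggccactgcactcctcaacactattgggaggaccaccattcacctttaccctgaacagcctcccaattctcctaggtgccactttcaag

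In the window of chromosome 9 the closest site had 12 mismatches to T2, and in that of chromosome 15 it had 13, each without a match at the base next to the PAM. On chromosome 9 the marked site lay on the minus strand, so its PAM appears as the leading bases of the capitals. The window of chromosome 15 held a T5 seed followed by NGG on the minus strand.

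A further pair of windows is shown because their sites came closest to T2 of all 970 peaks, with 7 mismatches on chromosome 3 and 6 mismatches on chromosome 4 (minus strand). The last window is that of the only desert peak without a T2 seed that held a T4 seed, and its capitals mark the T4 seed with its PAM:
chr3:94169065-94169205: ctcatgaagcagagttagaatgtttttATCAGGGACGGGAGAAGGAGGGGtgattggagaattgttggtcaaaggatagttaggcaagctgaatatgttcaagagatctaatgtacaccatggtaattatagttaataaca
chr4:19607356-19607496: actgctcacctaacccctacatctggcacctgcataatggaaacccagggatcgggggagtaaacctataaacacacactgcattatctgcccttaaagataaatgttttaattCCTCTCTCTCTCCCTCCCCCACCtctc
chr1:199247113-199247253: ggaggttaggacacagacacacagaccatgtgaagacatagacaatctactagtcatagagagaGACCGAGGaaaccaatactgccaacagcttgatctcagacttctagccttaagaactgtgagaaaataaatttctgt

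The desert peaks without a T2 seed were sparse. They numbered 1.27 per Mb of sequenced desert (1.19 to 1.35, Poisson interval), against 2.63 (2.56 to 2.70) for peaks without the seed outside deserts. Deserts made up 27.0% of the 2836 Mb of sequenced bases on these chromosomes and held 15.1% of the 6412 peaks without a T2 seed. The ratio of the density in deserts to that outside was 0.483 (0.451 to 0.517). For peaks with a T2 seed the ratio was 0.403 (0.343 to 0.473), an interval that overlaps the former. The share of sequence to which reads can be mapped uniquely was not computed, and its part in these densities was not tested.

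The thinning continued with distance inside the deserts. From 100 to 200 kb from the nearest protein-coding gene there were 401 of the peaks, or 1.78 per Mb (1.61 to 1.96). From 200 to 500 kb there were 349, or 1.16 per Mb (1.04 to 1.29), from 500 to 1000 kb there were 160, or 0.947 per Mb (0.806 to 1.11), and beyond 1000 kb there were 60, or 0.860 per Mb (0.656 to 1.11). The intervals of the first and second classes did not overlap, while beyond 200 kb those of neighbouring classes overlapped. The median distance was 236 kb and the largest 2089 kb. Just inside the limit of 100 kb lay summits at 100.3, 100.8 and 100.8 kb with folds of 3.73, 4.51 and 3.59, and just outside it summits at 99.8, 99.5 and 99.3 kb with folds of 2.81, 4.59 and 3.91.

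**Figure D1:**
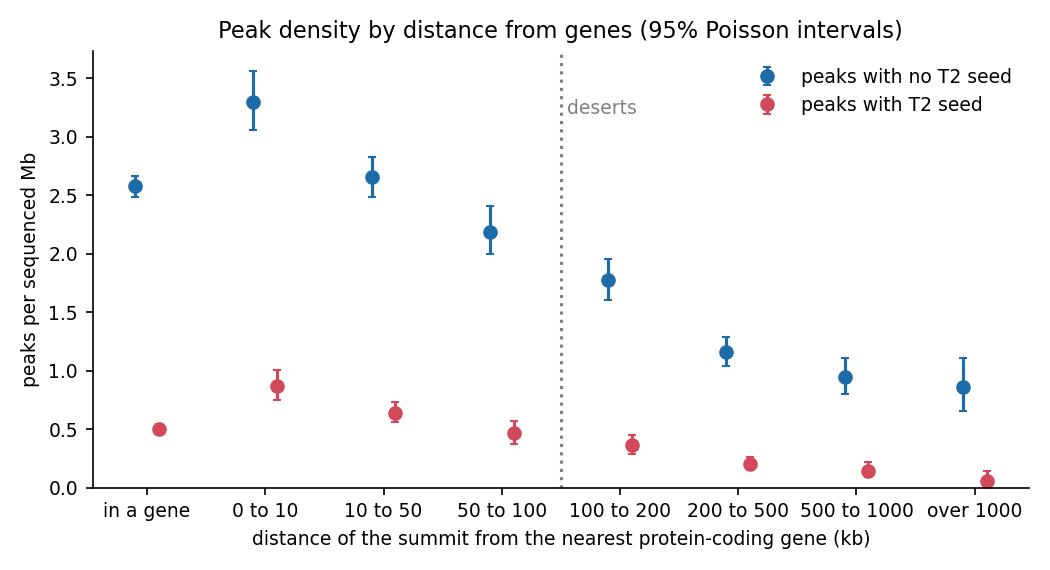
Peaks per sequenced Mb (vertical axis) by distance of the summit from the nearest protein-coding gene in kb (horizontal axis), for peaks with no T2 seed and with a T2 seed; bars are 95% Poisson intervals and the dotted line marks 100 kb. Peaks without the seed fall from 3.30 per Mb within 10 kb of a gene to 0.860 per Mb beyond 1000 kb.

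Deserts of different length differed in the same way. The 762 deserts of up to 0.2 Mb held 117 of the peaks at 1.93 per Mb (1.59 to 2.31), and the 66 deserts over 2 Mb held 157 at 0.857 per Mb (0.729 to 1.00). Of 1602 deserts 524 held at least 1 of the peaks, 300 of them only 1, and 29 held 5 or more. The longest desert without any had 4.58 Mb of sequence.

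The peaks were weak. Their median fold enrichment, that is, ChIP tags over the background expected locally from the input, was 3.61 (3.61 to 3.64), with a range from 2.18 to 7.51. The 173 desert peaks with a T2 seed had a median of 5.41 (5.11 to 5.68). A fold under 4 was found for 705 of the 970 peaks, or 72.7% (69.8 to 75.4, Wilson interval), against 60% of all peaks, 68.7% of the peaks without the seed outside deserts and 15% of the desert peaks with the seed. Fold values came in steps, and 78 of the peaks shared the value 3.61, which bears on how close medians of different groups can lie.

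A MACS *P* value at or below 1e-05 was reached by 81 of the peaks, which is 8.35% (6.77 to 10.3), against 15.8% of all 7748 peaks. It was reached by 43.9% of the desert peaks with a T2 seed, a difference of -35.6 percentage points (-43.2 to -28.1, Newcombe interval). A fold of 5 or more was reached by 28, which is 2.89% (2.0 to 4.14), against 14.0% of all peaks and 63.0% of the desert peaks with the seed. An FDR under 100% was given to 104 of the peaks, or 10.7% (8.93 to 12.8), against 18.3% of all peaks, 11.9% of those without the seed outside deserts and 46.8% of desert peaks with the seed.

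Among peaks without a T2 seed, those in deserts lay close to those outside in median fold and fell short at the highest folds. The median fold was 3.69 (3.61 to 3.75) for peaks without the seed within 100 kb of a gene and 3.62 (3.61 to 3.67) for those inside genes. The share with *P* at or below 1e-05 was 1.19 points lower in deserts than outside, with an interval from -2.96 to 0.866. The share with a fold of 5 or more was lower by 1.76 points (-2.82 to -0.402), since 4.65% of the peaks without the seed outside deserts reached it. The median ChIP tag count was 34.0 in deserts and 34.0 outside, and the median peak length was 908 bp in deserts and 915 bp outside.

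Tag counts did not follow the fold in one direction. Tags were counted over the whole peak, and peak length, which ran from 407 to 4737 bp, was not taken into account here. The 125 desert peaks without the seed whose fold was under 3 had a median of 49 tags, the 580 from 3 to under 4 had 34, the 237 from 4 to under 5 had 29, the 23 from 5 to under 6 had 30, and the 5 with a fold over 6 had 40. The 25 peaks with 100 tags or more had a median fold of 3.01, although 1 of them, with 104 tags, had a fold of 5.92, and the highest count was 275 tags. The tag counts of the input were not in the list, so the local background behind these folds could not be given.

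**Figure D2:**
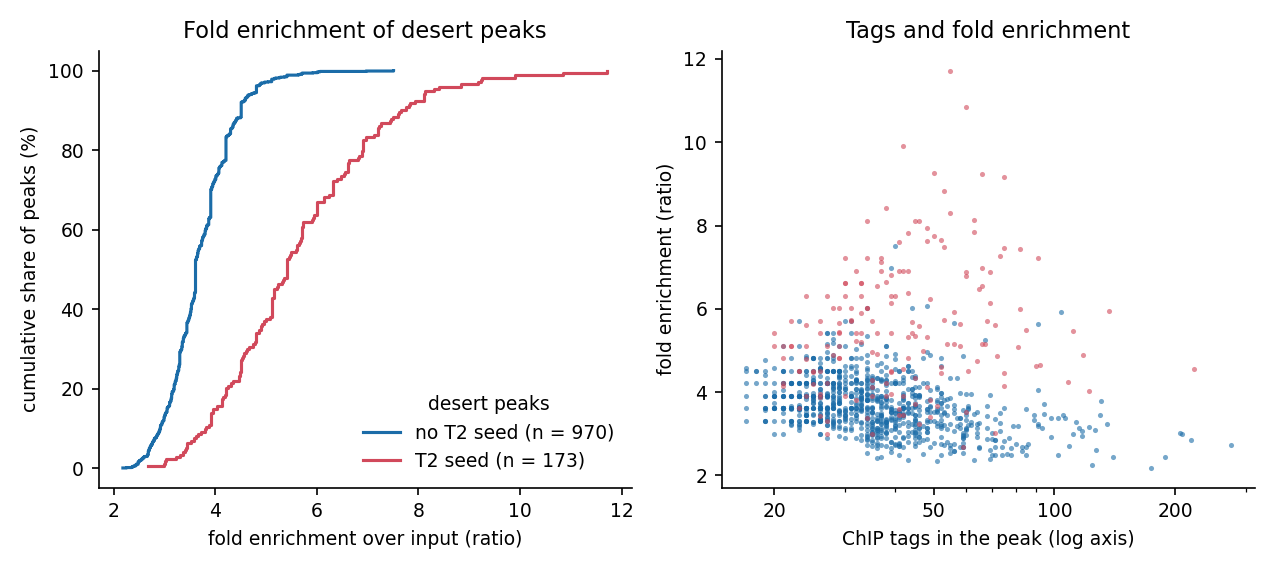
Left, the cumulative share of desert peaks (percent) by fold enrichment over input, for the 970 peaks with no T2 seed and the 173 with it; right, fold enrichment against ChIP tags in the peak on a log axis, 1 point per peak. The curve without the seed reaches 72.7% below a fold of 4, where the curve with the seed stands at 15%, and points with over 100 tags lie mostly at low folds.

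The highest fold, 7.51, belonged to the peak on chromosome 9 at chr9:118730555-118731385, with 40 tags and a MACS score (-10 times the log10 of the *P* value) of 85.9. It lay 185 kb from *PAPPA*, which encodes a protease that cleaves IGF-binding proteins, and 850.5 kb from *TNC*, which encodes the matrix protein tenascin-C. The peak at chr6:92368490-92369594, with a fold of 6.06 and 48 tags, lay within the lncRNA gene *CASC6*, 1072 kb from *MAP3K7*, which encodes the kinase TAK1, and 1581 kb from the ephrin receptor gene *EPHA7*.

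A further 7 of the 10 highest folds ran from 5.66 to 6.01. They were flanked by *GDF10* and *PTPN20B* on chromosome 10, *TBL1XR1* and *KCNMB2* on chromosome 3, *MAN1A1* and *TBC1D32* on chromosome 6, *FOXL1* and *C16orf95* on chromosome 16, *TLE3* and *UACA* as well as *MCTP2* and *NR2F2* on chromosome 15, and *B3GAT1* at the end of chromosome 11. Among these genes *TBL1XR1* and *TLE3* encode transcriptional corepressors, *FOXL1* and *NR2F2* encode transcription factors, and *KCNMB2* encodes a subunit of a potassium channel. For 3 of the 10 the FDR stood at 100%.

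The 10 smallest *P* values had scores from 70.7 to 92.7, and 4 of these peaks were also among the 10 highest folds. The first was the peak at chr15:86442579-86444106, 105 kb from *KLHL25*, with 67 tags, a fold of 5.26 and an FDR of 18.3%. The second, at chr15:95402512-95403773 between *MCTP2* and *NR2F2*, had a score of 92.4 with 56 tags, a fold of 5.66 and an FDR of 18.1%. A peak in the lncRNA gene *IL12A-AS1*, 100.3 kb from the cytokine gene *IL12A*, had a score of 78.1 at a fold of only 3.73. Further ones lay near *GAS1* on chromosome 9, between *MTRR* and *SEMA5A* on chromosome 5, near the potassium channel gene *KCNJ12* on chromosome 17, and between *CD83* and *JARID2* on chromosome 6.

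The 5 peaks farthest from a protein-coding gene had folds from 2.76 to 3.81, and 4 of them held more tags than the upper quartile of 44 for all 970. Of these, 3 lay in the desert between *CELF4*, which encodes an RNA-binding protein, and *PIK3C3*, which encodes the lipid kinase VPS34. They held 126, 86 and 59 tags at folds of 3.09, 2.76 and 3.03. The others lay between the cadherin genes *CDH9* and *CDH6* (fold 3.61, 26 tags) and between *AGA* and the teneurin gene *TENM3* (fold 3.81, 53 tags).

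Chromosomes differed in how densely the peaks lay in their deserts. Chromosome 15 had 2.70 per Mb (1.94 to 3.67), chromosome 1 had 2.45 (2.0 to 2.96) with 104 peaks, and chromosome 6 had 1.99 (1.61 to 2.42). Chromosome 13 had 0.773 (0.525 to 1.10), chromosome 9 had 0.804 (0.534 to 1.16), and chromosome 19, with 3.63 Mb of desert, had none (Poisson bound 1.02). The intervals of chromosomes 1, 6 and 15 lay above those of chromosomes 9 and 13. On each of the 23 chromosomes the density in deserts was below that outside, with ratios from 0.259 on chromosome 21 to 0.811 on chromosome 15 for the 22 that held any. For chromosomes 15, 17, 18, 19 and 20 the density outside lay within the interval of the desert density.

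**Figure D3:**
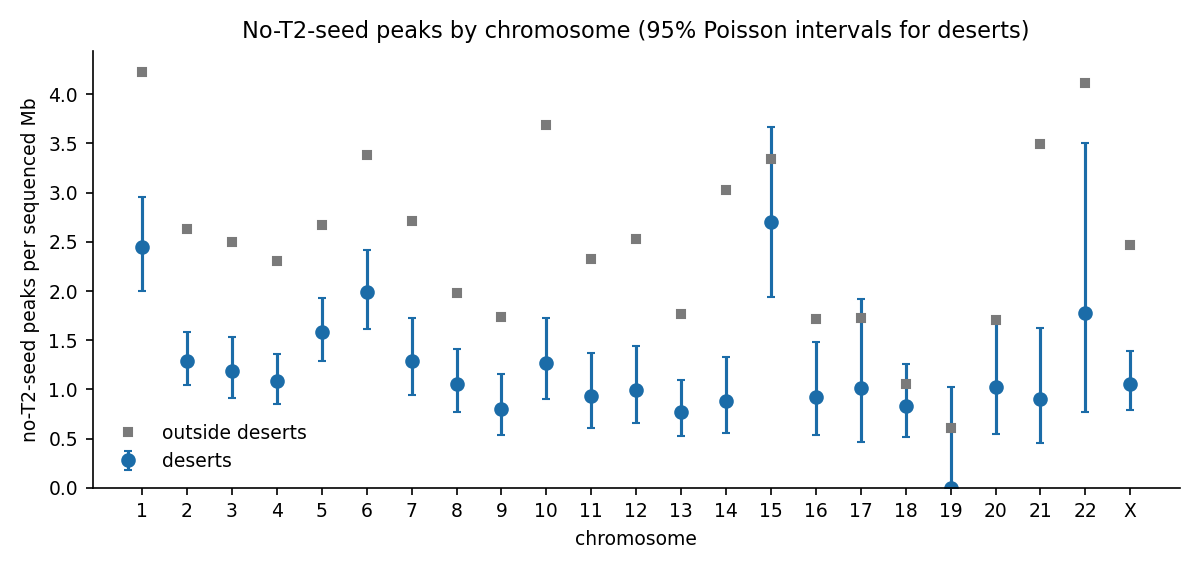
Peaks without a T2 seed per sequenced Mb (vertical axis) by chromosome (horizontal axis), in deserts (circles, with 95% Poisson intervals) and outside deserts (squares, no interval drawn). Chromosomes 1, 6 and 15 stand above 1.9 per Mb in deserts, and every square lies above its circle.

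A few deserts held many of the peaks, and those with 8 or more are described here because of that count, with no test. The desert between *USP24*, which encodes a deubiquitinase, and ENSG00000284686 on chromosome 1 held 10 in 0.758 Mb, or 13.2 per Mb (6.33 to 24.3). All 10 summits lay in the lncRNA gene ENSG00000234810. Their folds ran from 2.44 to 4.21 with a median of 3.0, below the median of 3.61 for all 970, while their tags ran from 38 to 140. The densest was the desert between *TLE3* and *UACA* on chromosome 15, with 8 peaks in 0.356 Mb, or 22.4 per Mb (9.69 to 44.2), and folds from 3.0 to 5.70.

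Between *CD83*, a surface marker gene of dendritic cells, and *JARID2*, which encodes a partner of the Polycomb complex PRC2, 9 peaks lay in 0.909 Mb with folds from 2.78 to 4.71. The deserts between *SEMA6A* and *DTWD2*, *CELF4* and *PIK3C3*, and *AGA* and *TENM3* held 8 each in 2.06, 4.19 and 4.50 Mb. Their densities were 3.88, 1.91 and 1.78 per Mb. Of the 51 peaks in these 6 deserts, 5 had a *P* value at or below 1e-05.

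**Figure D4:**
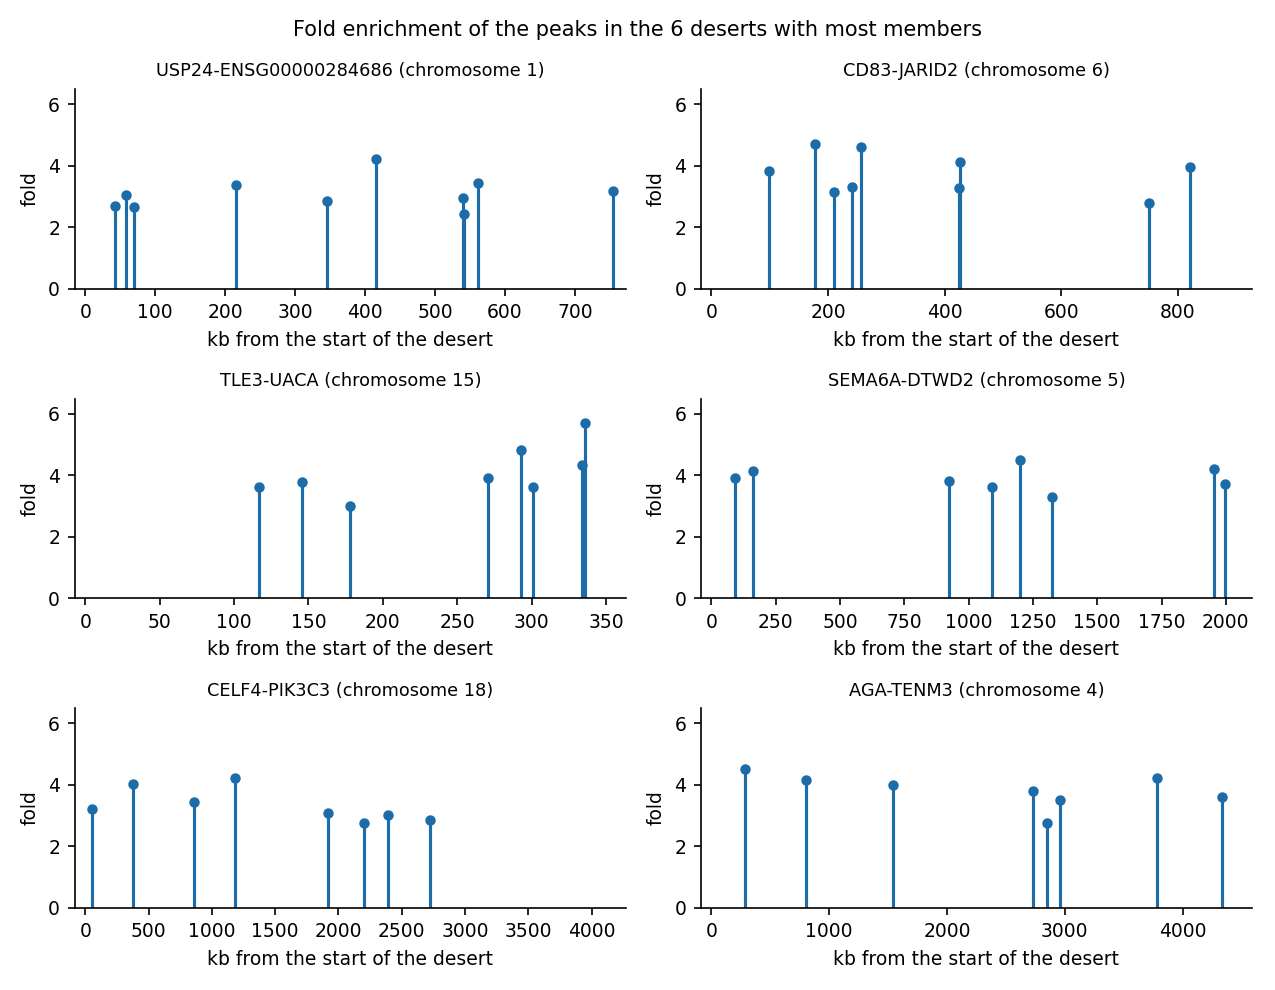
Fold enrichment (vertical axis) of the peaks without a T2 seed along the 6 deserts that held 8 or more of them, by distance in kb from the start of each desert (horizontal axis, a different scale in each panel). The 10 peaks of the *USP24* desert lie between folds of 2.44 and 4.21, and the first of the 8 in the *TLE3* desert lies 117 kb from its start.

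The genes that flank deserts were grouped into families by the start of their symbols. Deserts beside a cadherin or protocadherin gene (*CDH*, *PCDH*), which encode calcium-dependent adhesion proteins, made up 6.83% of desert bases and held 39 of the peaks, 4.02% (2.95 to 5.45), or 0.746 per Mb (0.531 to 1.02). This interval lay below the family's share of desert bases. The 35 deserts concerned are long, with 52.3 Mb in all, and the density over all deserts longer than 2 Mb, 0.857 per Mb, lay within the cadherin interval. Of the desert peaks with a T2 seed 2.89% lay beside cadherin genes. Deserts beside a gene of a transcription factor family (such as *SOX*, *FOX*, *NR2F*, *POU* or *ZNF*) made up 9.23% of desert bases and held 99 of the peaks, 10.2% (8.46 to 12.3). The largest counts there were 7 between *NR2F2* and *ARRDC4* and 6 between *POU3F1* and *RRAGC*.

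Deserts beside an ion channel or neurotransmitter receptor gene (such as *KCN*, *GRI* or *GABR*) made up 5.83% of desert bases and held 67 of the peaks, 6.91% (5.48 to 8.68). Deserts beside a neuronal adhesion or guidance gene (such as *SLIT*, *SEMA* or *TENM*) made up 9.22% of desert bases and held 80, 8.25% (6.68 to 10.1). Deserts beside olfactory receptor genes, 0.479% of desert bases, held none in 3.66 Mb (Poisson bound 1.01 per Mb). For the transcription factor, channel and adhesion families the share of desert bases lay within the interval of the share of peaks.

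The peaks fell in lncRNA genes somewhat more often than desert sequence does. Of the 970 summits 377, or 38.9% (35.8 to 42.0), lay within a lncRNA gene, which cover 32.4% of sequenced desert bases. Only 16 lay in a lncRNA exon, 1.65% (1.02 to 2.66), and such exons cover 1.20% of desert bases. The share among desert peaks with a T2 seed was 37.6% (30.7 to 45.0), and the difference of 1.29 points had an interval from -6.71 to 8.84. The median fold was 3.59 (3.48 to 3.61) in lncRNA genes and 3.65 (3.61 to 3.74) elsewhere in deserts.

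In all, 331 lncRNA genes held at least 1 of the summits and 15 held 3 or more. After ENSG00000234810 with 10 came *LINC01331* on chromosome 5, with 5 summits in 425 kb at folds from 2.55 to 3.61. *CASC15* on chromosome 6 held 3 in 990.3 kb, and *PKN2-AS1* on chromosome 1 held 3 in 1064 kb. Summits in overlapping lncRNA genes were counted for each. Outside every annotated gene lay 581 summits, or 59.9% (56.8 to 62.9).

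Close neighbours of the peaks were few. The nearest other summit of the whole list was at a median of 153335 bp (137366 to 167889), and 60 of the peaks, 6.19% (4.84 to 7.88), had another summit within 10 kb. For peaks without the seed outside deserts this share was 11.2%, a difference of -4.97 points (-6.57 to -3.09), beside the lower density in deserts. For desert peaks with a T2 seed it was 7.51%, a difference of -1.33 points with an interval from -6.43 to 2.18. The share that the density in deserts alone would give was not computed, so whether the peaks cluster was not tested. Within 2 kb there was another summit for 11 of the peaks. The nearest neighbour was another desert peak without the seed for 532 of them and a desert peak with the seed for 101.

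The sequence around the summits was then compared with every tile of the same length in the deserts that held no T2 seed, 5305560 tiles in all, which were counted and not sampled. The tiles include repeats, whereas the peaks rest on uniquely aligned reads and the methods describe removal of peaks in repeats. Peaks and tiles were therefore not matched, and the part of this in the comparisons with tiles below was not tested. Median GC content was 36.9% (36.2 to 37.6) in the windows of the peaks and 36.9% in the tiles. The windows were less spread, from 29.1% at the tenth percentile to 46.1% at the ninetieth, against 27.0% to 49.6% in the tiles. Desert peaks with a T2 seed had a median of 46.8%, and peaks without it were at 39.0% inside genes and 39.7% near them. At least 1 CpG lay in 52.2% of the windows (49 to 55.3), against 52.6% of the tiles.

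The T4 seed, GACCGNGG with its PAM, was rarer in desert peaks than in the other peaks without a T2 seed. It lay within 70 bp of 1 of the 970 summits, 0.103% (0.0182 to 0.582), and in 0.130% of the desert tiles. Outside deserts it lay near 53 of 5442 summits, 0.974%, where 0.279% of the tiles without a T2 seed held it. The difference between these shares of peaks was -0.871 points (-1.18 to -0.341). By distance, the share was 0.981% (0.743 to 1.29) within 50 kb of a gene, 0.893% (0.348 to 2.27) from 50 to 100 kb, 0 of 401 peaks (Wilson bound 0.949%) from 100 to 200 kb and 0.176% (0.0310 to 0.989) beyond, and the intervals of neighbouring classes overlapped. With deserts taken from 200 kb the difference was -0.731 points and its interval, -1.04 to 0.109, included 0. Desert peaks with a T2 seed held a T4 seed in 13 of 173 cases, or 7.51%.

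The seeds of the other gRNAs were rare, and those of T1 and T3 were near the level of the tiles. T1 (GCACGNGG) lay near 2 summits, 0.206% against 0.196% of tiles, and T3 (GTCCCNGG) near 10, 1.03% (0.561 to 1.89) against 0.813%. T5 (TGGCCNGG) also lay near 10, 1.03% (0.561 to 1.89), and here the tiles stood above the interval at 2.05%. Outside deserts the T5 seed likewise lay near 1.47% of summits without a T2 seed against 4.16% of tiles.

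Weaker forms of the T2 seed were not more frequent in the peaks than in the tiles. The last 4 bases with PAM (GGAGNGG) lay near 3.30% of summits (2.35 to 4.62) against 3.81% of tiles. The last 5 bases followed by NAG (GGGAGNAG) lay near 1.34% (0.785 to 2.28) against 2.13%, and the last 5 bases without a PAM (GGGAG, which includes the former) near 20.5% (18.1 to 23.2) against 22.6%. With 1 mismatch in the last 5 bases and NGG the shares were 13.1% (11.1 to 15.4) and 16.5%, and of these 4 forms it was the only one for which the tiles lay outside the interval of the peaks. Outside deserts the form with 1 mismatch lay near 18.2% of summits without the seed.

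Over the whole guide, T2 had no closer match either. The closest site with NGG in a window had a median of 13.0 mismatches to T2 in the peaks and 13 in the tiles, against 7 in desert peaks with a T2 seed, where the seed that the rule requires fixes part of the match. Sites with at most 9 mismatches were found in 2.06% of the peaks (1.34 to 3.16) and 4.01% of the tiles. For T1, T3, T4 and T5 the median was 13.0 as well. The lower share of sites with at most 9 mismatches was not particular to T2. It was 1.34% (0.785 to 2.28) against 3.28% of tiles for T3 and 1.24% (0.709 to 2.15) against 3.59% for T4. For T5 it was 2.06% (1.34 to 3.16) against 3.56%. For T1 it was 2.06% (1.34 to 3.16) against 2.85%, and there the tiles lay within the interval. A T2 seed with NGG farther than 70 bp from the summit, but within the peak, was present in 157 of the peaks, or 16.2% (14.0 to 18.6). Of all desert tiles, with and without the seed, 2.17% held a T2 seed with NGG. A tile is only as long as a summit window, whereas the median peak length was 908 bp. The share for desert sequence as long as the peaks was not computed, so whether 16.2% exceeds it was not tested.

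Simple repeats were counted next. A run of 10 or more A (or T) lay in 1 window, 0.103% (0.0182 to 0.582), against 3.45% of tiles and 0.221% of windows of peaks without the seed outside deserts, and no window held 6 or more tandem copies of TA, against 0.455% of tiles. For 6 or more copies of CA the shares were 0.309% of the windows (0.105 to 0.905) and 0.790% of tiles. For 6 or more copies of GA they were 0.412% (0.160 to 1.06) and 0.323%, and the share was 0.320 points (0.0402 to 0.966) above the 0.0919% of peaks without the seed outside deserts, a difference that rests on 4 desert windows. Runs of 20 or more bases made up of A and G alone, or of C and T alone, lay in 1.65% of the windows (1.02 to 2.66), in 2.52% of tiles and in 44.5% of windows of desert peaks with a T2 seed, whose guide has only A and G in its last 11 bases. The CTCF core CCACNAGG lay in 1.13% of the windows (0.634 to 2.02) against 1.26% of tiles, and the AP-1 site TGANTCA in 4.12% (3.04 to 5.57) against 4.76%. All 49-mers, the length of the sequenced tags, were unique in the genome for 97.6% of the windows (96.5 to 98.4), and 89.0% for desert peaks with the seed.

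Short words that contained T followed by A were the most over-represented at the summits. Of 1467 6-mers present in at least 20 of the windows, counted together with their reverse complements and ranked by the ratio to tiles, the first 15 all contained this step, a ranking given as a description. The share of all 1467 that contained the step is not given here, so the weight of that count cannot be judged. GCCCTA (reverse complement TAGGGC) lay in 5.77% of the windows and 2.83% of tiles, CCTAAG in 9.59% and 4.75%, and ATAAGG in 12.0% and 6.53%. For 14 of the 15 the ratio was also above 1 in peaks without the seed outside deserts, where it reached 1.88 for GCCCTA. At the other end, GAGTGC lay in 2.37% of the windows and 4.89% of tiles.

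The step extended over a plateau around the summit. Within 210 bp of the summit T followed by A made up 7.86% to 8.29% of positions in 70-bp bins, and from there to 490 bp it made up 7.10% to 7.43%, so the bins of the plateau did not overlap with those beyond. A followed by T behaved likewise, with 8.89% to 9.21% within and 8.34% to 8.62% beyond. Peaks without the seed outside deserts also had more T followed by A within, from 7.36% to 7.52%, than beyond, from 6.01% to 6.36%. In desert peaks with a T2 seed, whose central sequence the rule fixes in part, the bins within ran from 4.72% next to the summit to 6.81% at the edge of the range, and those beyond from 6.05% to 6.5%. CpG moved the other way in the desert peaks without the seed, from a mean of 0.610% of positions beyond to 0.547% within, where the bins of both ranges overlapped. The methods name an enzymatic ChIP kit, and any part of DNA fragmentation in these profiles was not tested.

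**Figure D5:**
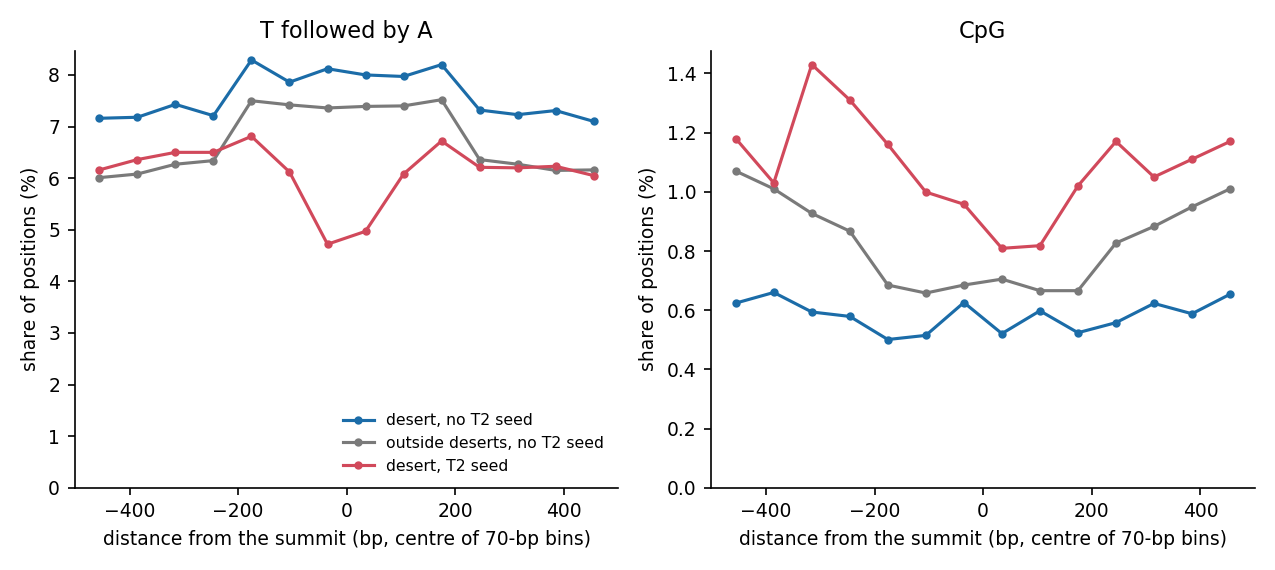
Share of positions (percent, vertical axis) at which T is followed by A (left) or C by G (right), in 70-bp bins by distance from the summit in bp (horizontal axis), for 3 groups of peaks. In desert peaks without a T2 seed T followed by A stays at 7.86% or more within 210 bp of the summit and at 7.43% or less beyond.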

How the data were processed

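ChIP was done in triplicate according to the methods, whereas the labels give 1 ChIP and 1 input sample. The methods describe selection of peaks common to the triplicates. The main text of the paper reports far fewer enriched peaks than the 7757 of the deposited list. A legend in its supplement counts slightly fewer ChIP-seq binding sites than the list holds. The deposited list is thus close in size to the set of that legend and is not the enriched set of the main text. Whether it is 1 replicate, a pool or an earlier stage of the selection is not stated. Single-end reads were aligned by the authors with SOAP2 (hg19), equal numbers of unique reads were drawn, and MACS 1.4.2 was run against the input with a *P* threshold of 0.001, 1 tag kept per position and fragments of 200 bp; the methods also describe removal of peaks in repeats. The deposited tag counts are raw counts of ChIP tags per peak. The deposited fold enrichment is a ratio to the local background. The deposited FDR is a percent. The deposited score is the MACS *P* value as -10 log10. There were 62723055 ChIP and 62723050 input tags before duplicates were removed, and the smallest peak held 17 tags.

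Summits were placed at start + summit - 1. Genes were those of GENCODE 44 mapped to GRCh37, and deserts counted only sequenced bases (765 Mb). Shares were given Wilson, differences Newcombe, medians order-statistic and densities exact Poisson intervals, all at 95%, and ratios of densities log-normal intervals (scipy 1.17.1, numpy 2.4.6); the functions were tested on simulated data. No test of conditions was possible. Named peaks were the 10 with the highest fold, the 10 with the smallest *P*, the 5 farthest from a gene, and, chosen after their values were seen, those closest to T2, the 1 with a T4 seed and the deserts with 8 or more peaks. One of the 10 peaks with the highest fold is not reported here. The members, motifs and gene families were chosen with earlier results of these data known.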

Additional observations from a re-analysis of the deposited data

How the results depend on the processing

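The 9 main results were recomputed under 8 alternatives, 70 values in all, of which 42 stayed within the interval of the main value (for the number of peaks, within 1.5 times) and 28 did not. With the distance from genes set to 50, 200 and 500 kb the density was 1.46, 1.06 and 0.922 per Mb and the share with another summit within 10 kb was 7.90, 3.87 and 2.73%. At 50 kb the share in lncRNA genes was 35.7%. At 200 kb there were 569 peaks. At 500 kb there were 220, with 4.09% at *P* of 1e-05 or less and a median GC of 35.5%. With no T2 seed anywhere in the peak the density was 1.06 per Mb, the share with a fold of 5 or more 1.85% and that with a T4 seed 0%. Among peaks with *P* at or below 1e-05 there were 81, at 0.106 per Mb, with a median fold of 4.05, 12.3% at a fold of 5 or more, a median GC of 38.3%, a T4 seed in 0%, 45.7% in lncRNA genes and 3.70% near another summit. With lncRNA genes also kept at 100 kb there were 261 peaks, at 1.03 per Mb, with a median fold of 3.66, 1.15% at a fold of 5 or more, a T4 seed in 0% and 3.07% near another summit. The cause of these shifts was not tested, though the smaller sets follow from the stricter rules.

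In 16 comparisons with the peaks outside deserts, chosen after seeing the data, no direction changed. The ratio of densities ran from 0.415 to 0.547. Among peaks with *P* at or below 1e-05 the intervals of the differences for a fold of 5 or more (-12.9 to 3.10 points) and for the T4 seed (-4.95 to 1.60) included 0.

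No paired analysis was possible because there was 1 ChIP sample. Deserts here rest on 1 peak list with most peaks near the call threshold; the input values behind each fold, the reads and the mappable share of each desert were not used, and sites under the threshold were not detectable at this depth.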
